A study of Mus musculus with 2 samples.

Results

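The SR proteins are splicing factors rich in serine and arginine, and the genes examined here were 10 members of that family, Srsf1 to Srsf7, Srsf9, Srsf10 and Srsf11. They were found through the RefSeq accession that the spot tables give for each probe. This named 18 probes of 9 of the 10 genes, among 27224 named probes of 20653 genes. No accession on the arrays led to Srsf11, so it has no value here. All 18 probes carried the flag that Feature Extraction gives to spots well above background on both arrays, so no member was lost to the filter on dim probes.

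MIN6 is an insulinoma line from a transgenic C57Bl/6 mouse that secretes insulin in response to glucose. Cells at passages 15 to 20 had been transduced with lentivirus made from PLVX-IRES-ZsGreen-mFTO, which carries mouse FTO, or from the empty PLVX-IRES-ZsGreen vector as the control. Both vectors encode the green fluorescent protein ZsGreen, and both viruses were added with polybrene, for a transduction of 48 h. FTO is an enzyme that removes methyl groups from adenosine in RNA. There was 1 one-color array per condition, so the differences below stand without replicates, and no p-value, SD between cultures or test is given. In RNA of a whole culture, a level per cell and a share of cells that carry it cannot be told apart.

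SR proteins carry RNA recognition motifs and a tail of arginine and serine repeats. They bind exonic sequences, help the spliceosome to find the neighbouring splice sites and, as a rule, favor inclusion of the exon. Kinases of the SRPK and CLK families phosphorylate the tail, and hnRNP proteins often act against them at the same exons. N6-methyladenosine (m6A), a substrate of FTO, reaches this system through the nuclear reader YTHDC1, which is known to bring SRSF3 to RNA and to keep SRSF10 away from it, and binding of SRSF2 near m6A has been linked to FTO in fat cell precursors. The comparison therefore asks whether the mRNA of these factors differed between the arrays. It does not measure splicing, binding or phosphorylation.

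Of 39417 probes, 82.0% carried this flag on the FTO-labelled array and 84.8% on the control-labelled array, and no spot was saturated. The signal of Fto itself was 7301 on the first and 5179 on the second, a log2 difference of 0.06 after normalization, with a spot error of 0.20. The vector carries the coding sequence of Fto and the files do not place the probe in the transcript, so whether this probe can see the vector's RNA is unknown. The arrays are therefore called by their labels throughout. The 10 beta cell markers were well above background on both arrays, with log2 differences from -0.24 (Ins2) to 0.45 (Slc2a2). The brightest of these moved with the scaling. Ins2 was at -0.64 after scaling by the 75th percentile and at -0.51 after cyclic loess, and Iapp, Pcsk2, Ins1 and Chga lay between -0.56 and -0.39 after the first. Of the other endocrine hormones, Gcg had signals of 257411 and 243558, Ppy of 14003 and 10872, Sst of 1834 and 1225 and Ghrl of 368 and 320.0. Among exocrine and duct markers Krt19 had signals of 1195 and 959, and Cpa1, Prss2 and Cela1 none above 69.9. Of the fibroblast, endothelial and leukocyte markers, Col1a1 had signals of 515 and 362 and Pecam1 of 296 and 260.0, and Col3a1 and Ptprc none above 42.4. In each pair of signals the FTO-labelled array is given first, here and below.

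Before normalization the signal of all 18 SR probes was higher on the FTO-labelled array, by a ratio between 1.06 and 1.61. That array was brighter in general, with a median signal of 292 against 237 over all spots that were not controls. The differences below are therefore log2 differences after quantile normalization, FTO minus control. Signals of different probes are not compared with one another, since probes differ in how well they bind their target.

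**Figure D1:**
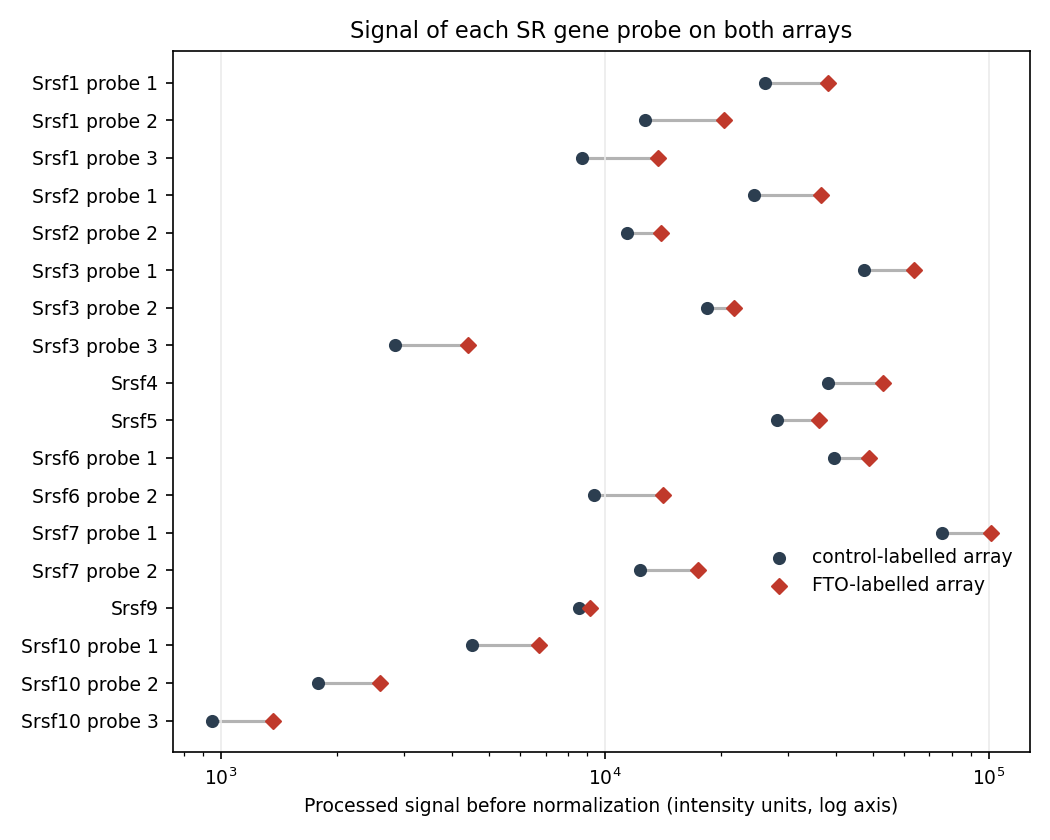
Processed signal of the 18 probes of 9 SR genes before normalization, on a log axis, with circles for the control-labelled array and diamonds for the FTO-labelled array. Probes of a gene are numbered from the brightest. Each diamond lies to the right of its circle, and the gap is smallest for Srsf9.

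Differences of the SR genes between the arrays were small. No SR gene differed by 2-fold, where 2.69% of 18507 named genes tested did (40.4% of these were higher on the FTO-labelled array, and 17.1% after scaling by the 75th percentile). No SR gene differed by 1.5-fold either, against 6.96% of all genes tested (40.3% of these higher, and 13.3% after the other scaling). In the range of signal that the brightest probes of the SR genes span, only 12 of 5649 genes (0.212%) differed by 1.5-fold, so the absence of such a difference among 9 genes does not set them apart. The lowest of the 18 probe differences was -0.34 (Srsf9), a 1.27-fold difference, and the highest was 0.24 (Srsf1).

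With the brightest probe of each gene, Srsf1, Srsf2, Srsf3, Srsf4, Srsf7 and Srsf10 lay above 0, and Srsf5, Srsf6 and Srsf9 below. Thus 6 of 9 genes were above 0, beside 51.6% of all genes tested and 54.5% of genes in the same range of signal. The median was 0.07, against 0.0064 over all genes tested and 0.01 over genes in the same range of signal. Over the 18 probes, 13 were above 0 and 5 below, with a median of 0.10. These 18 probes are of 9 genes, and probes of the same gene are not independent. A share of all named probes above 0 was not computed, so this count does not set the SR probes apart.

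The error of a single spot was read in 2 ways. Feature Extraction gives an error estimate for each spot, which came to 0.20 for the log2 difference of every SR probe. It hardly varied among them (0.2040 to 0.2041), so it serves as 1 cutoff for all and does not tell their precision apart. The 399 probes printed 10 times give a measured value. Between the arrays, the log2 difference of the same probe varied over its 10 positions with a median SD of 0.06 for probes with a mean log2 signal over 10, a range that holds all SR probes. The difference exceeded the estimate from Feature Extraction for 5 of the 18 SR probes. The share of all named probes that did so was not computed, so this count does not set the SR probes apart. The difference exceeded 2 SDs of repeated spots for 12 of the 18 (66.7%), where 40.9% of 11499 named probes in the same range of signal did. The 18 probes are of 9 genes and probes of 1 gene are not independent, so these shares were not tested against each other. The SD used is a median. The highest SD of a repeated probe was 0.24 at mean log2 signals from 10 to 12 and 0.12 above 12. Both errors describe spots within this pair of hybridizations and leave out the variation between cultures, extractions and labelings. Repeated spots also showed areas of lost signal, 6 of 35 blocks on the FTO-labelled array and 2 on the control-labelled array, where at least 15% of dim to middling repeated spots were over 0.5 (log2) below the median of their probe. Of the 18 SR probes, 4 lie in such an area of the FTO-labelled array, with a median difference of 0.14 against 0.10 for the others, and this is said beside each of them.

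**Figure D2:**
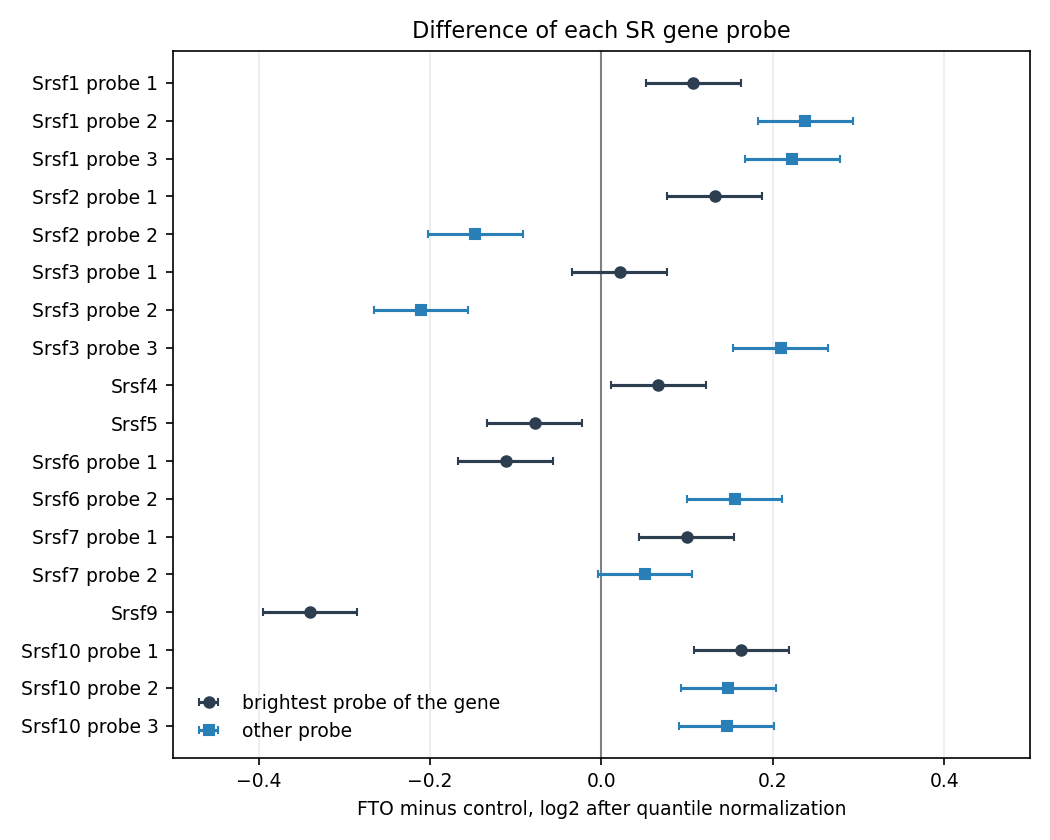
Log2 difference (FTO minus control) of each of the 18 SR probes after quantile normalization. Bars show the median SD of the difference over repeated spots of like signal. All probes of Srsf1, Srsf7 and Srsf10 lie above 0, the probes of Srsf2, Srsf3 and Srsf6 lie on both sides, and Srsf9 lies lowest at -0.34.

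Srsf10 is kept from binding by YTHDC1 and can repress splicing when its tail is dephosphorylated. After quantile normalization its brightest probe had the highest brightest-probe difference of the family. This rank depended on the setting. After cyclic loess Srsf2 (0.19) and Srsf1 (0.16) lay above Srsf10 (0.14), and with the median over probes Srsf1 (0.22) lay above Srsf10 (0.15). The brightest Srsf10 probe (NM_010178) had signals of 6714 and 4493, a log2 difference of 0.16. A second probe of the same accession had signals of 1366 and 947 and a difference of 0.15. Another carries the accession of another Srsf10 transcript (NM_001080387), with signals of 2601 and 1789 and a difference of 0.15. The 3 values span 0.02 on the log2 scale, less than the spread of repeated spots, and 99.1% of 658 named genes with 3 probes had a wider span. Such shares, here and below, are over genes of any signal well above background. Over all genes with several such probes the median span was 0.16, and it was 0.11 in the range of signal of the SR probes. The Srsf10 difference itself was under the estimate from Feature Extraction for each of the 3 probes. In the range of signal of the SR genes, 10.9% of genes had a higher difference than the brightest Srsf10 probe. The NM_001080387 probe lies in a part of the control-labelled array where repeated spots lost signal.

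Srsf3, the small SR protein that YTHDC1 recruits and that also takes part in mRNA export, gave no single direction. Its brightest probe (NM_013663) had signals of 63632 and 47262, a difference of 0.02. The next had signals of 21707 and 18467 and a difference of -0.21, and the dimmest had 4398 and 2841 and a difference of 0.21. Probes of this gene thus spanned 0.42, or 7.58 SDs of repeated spots, and 19.8% of genes with 3 probes had a wider span. The dimmest probe lies in the part of the FTO-labelled array where repeated spots lost signal. The reference annotation also lists a pseudogene, Srsf3-ps, and whether any of these probes binds it was not tested.

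Srsf2, an SR protein that stays in the nucleus and marks nuclear speckles, had a pair of probes with opposite signs. The brighter (NM_011358) had signals of 36427 and 24466 and a difference of 0.13. The other had 13977 and 11404 and a difference of -0.15. Their gap of 0.28 is 5.04 SDs of repeated spots, and 24.0% of 3837 genes with 2 probes had a wider one.

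Of the 3 genes that m6A and FTO have been linked to, Srsf10 alone had probes of 1 sign. For Srsf2 and Srsf3 the disagreement between probes was larger than the difference of the brightest probe, so their direction cannot be given.

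Srsf1, which shuttles between nucleus and cytoplasm and stabilizes U1 at the splice donor, was higher on the FTO-labelled array at each of its 3 probes, all of NM_001078167. The brightest had signals of 38117 and 26085 and a difference of 0.11. The next had 20384 and 12687 and a difference of 0.24, and the dimmest had 13720.4 and 8706 and a difference of 0.22. The span of 0.13 is narrower than that of 78.3% of genes with 3 probes. The dimmer probes exceeded the estimate from Feature Extraction, and the dimmest lies in the part of the FTO-labelled array where repeated spots lost signal.

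Srsf7, an SR protein with a zinc knuckle beside its recognition motif, was slightly higher at both probes of NM_146083. Signals of the brighter were 101115 and 75488.5, with a difference of 0.10, and signals of the other were 17519 and 12368, with a difference of 0.05. After scaling by the 75th percentile the brighter probe was at -0.0037 and the other at 0.08, so no direction can be given for this gene.

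Srsf6, one of the larger SR proteins with a pair of recognition motifs, had probes of opposite sign (NM_026499). The brighter had signals of 48803 and 39598, a difference of -0.11, and lies in the area of lost signal of the FTO-labelled array. The other lies outside it, with signals of 14136 and 9375 and a difference of 0.16. Their gap of 0.27 is 4.83 SDs of repeated spots, and 25.4% of genes with 2 probes had a wider one.

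Srsf4, Srsf5 and Srsf9 had 1 probe each, so nothing within the gene checks their values. For Srsf4, the SR protein with the longest tail, signals were 52863 and 38007 (NM_020587) and the difference was 0.07. Its probe also lies in the area of lost signal. For Srsf5 (NM_001079695), a factor close to Srsf4 and Srsf6 in sequence, signals were 36085 and 28061 and the difference was -0.08. Both differences were within 2 SDs of repeated spots.

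Srsf9 stood lowest. Its signals (NM_025573) were 9116 and 8570.2, nearly equal before normalization, a ratio of 1.06 where the next lowest ratio of an SR probe was 1.18 (Srsf3). The normalized difference was -0.34, which is 6.15 SDs of repeated spots and larger than the estimate from Feature Extraction. Among genes in the range of signal of the SR genes, 1.01% (57 of 5649) lay lower. SRSF9 has a short tail and a pair of recognition motifs like SRSF1, whose 3 probes lay above 0. The Srsf9 probe lies in a part of the control-labelled array where repeated spots lost signal. The part of that loss in the Srsf9 value was not tested.

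**Figure D3:**
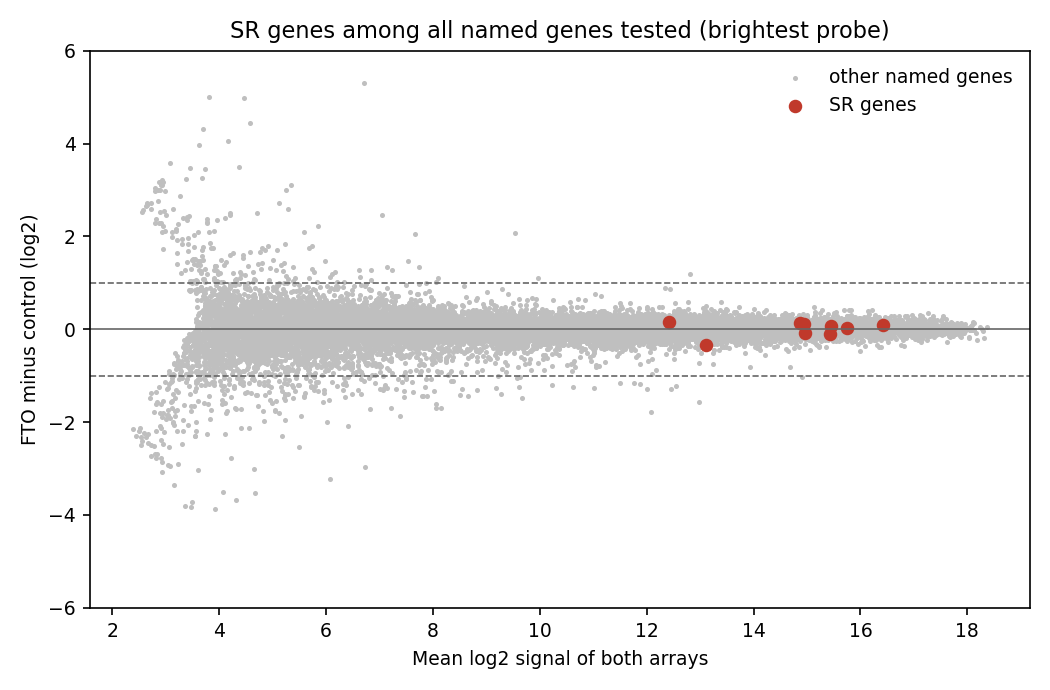
Log2 difference (FTO minus control) against the mean log2 signal for the brightest probe of each of 18507 named genes, with the 9 SR genes in red and dashed lines at a 2-fold difference. The SR genes lie at mean log2 signals over 12, where the spread of all genes is narrow, and none reaches a dashed line.

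Probes of a gene did not always agree. Of the 6 SR genes with several probes, 3 had probes of 1 sign (Srsf1, Srsf7 and Srsf10), beside 56.3% of 4608 named genes with several probes well above background. The median span between probes of a gene was 0.20 for the 6 SR genes and 0.16 for all 4608. Among the 1790 genes whose probes lie in the range of signal of the SR probes, the median span was 0.11 and 60.2% had probes of 1 sign. The span between probes of a gene exceeded the spread of repeated spots (0.06) in 4 of the 6 SR genes, Srsf7 and Srsf10 being the exceptions. The median span of 0.11 among the 1790 genes also lies above that spread, so this count does not set the SR genes apart.

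The wider splicing machinery was described with gene lists, again by the brightest probe of each gene. The lists were written with results on these arrays known, and their counts stand beside the shares over all genes given above. No gene of these lists differed by 2-fold, and Hnrnpl was the only one to differ by 1.5-fold.

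Of 28 genes of SR-related proteins, which share the serine and arginine repeats, 13 lay above 0 and 15 below, with a median of -0.0068. The highest was Son, a scaffold of nuclear speckles, at 0.36, with signals of 50871 and 29640. A second Son probe had a difference of 0.11. The lowest was Srrm2, another speckle scaffold, at -0.35, with signals of 356 and 361 and a second probe at -0.21. Tra2b, an SR-like activator of exon inclusion, had signals of 4425 and 2836 and a difference of 0.23. Srsf12, a further SR gene outside the 10, had signals of 898 and 709 and a difference of -0.05.

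In the list of SR protein kinases and transport factors, most genes lay below 0. Of 11 genes, 2 were above 0 and 9 below, with a median of -0.08, beside 51.6% of all genes tested above 0. Most of the 9 differences were smaller than the estimate from Feature Extraction, 0.20. The extremes were Clk4, a nuclear kinase of SR proteins, at -0.23 and Prpf4b, a kinase of the spliceosome, at 0.08. The signals of Clk4 were 11474 and 9939, and its second probe was at -0.08. Srpk1 and Srpk2, the cytoplasmic kinases that send SR proteins to the nucleus, had signals of 8043 and 6509 and of 2742 and 2258, with differences of -0.13 and -0.12. The Srpk2 probe lies in a part of the control-labelled array where repeated spots lost signal. Clk1, a nuclear kinase, had signals of 9411 and 7259 and a difference of -0.05.

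Among 25 hnRNP genes, 14 lay above 0 and 11 below, with a median of 0.05. Syncrip was highest at 0.22, with a second probe at 0.11. The brighter Syncrip probe lies in the area of lost signal of the FTO-labelled array. Hnrnpl, which binds CA-rich RNA and often silences exons, was lowest at -0.72, a 1.65-fold difference, with signals of 894 and 1132 at its single probe. In 7 of the 12 hnRNP genes with several probes the probes had opposite signs.

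For the core spliceosome, 14 of 31 genes lay above 0 and 17 below, with a median of -0.02, from Prpf19 at -0.43 to Snrpg at 0.26. Prpf19, an ubiquitin ligase of the spliceosome, had signals of 5465 and 5473 at its single probe. Genes of the exon junction complex and of nonsense-mediated decay, the pathway that removes the poison exon transcripts of SR genes, were at 7 above and 7 below 0. Their median was -0.0049, and Smg8, a decay factor, was highest at 0.28, or 0.07 after scaling by the 75th percentile. The Smg8 probe was dim, with signals of 175 and 124, and lies in the area of lost signal of the FTO-labelled array. Magoh had no named probe.

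Of the 15 genes that write, read or remove m6A, 11 lay above 0 and 4 below, with a median of 0.02, from Mettl3, the methyltransferase, at -0.11 to Ythdf3, a cytoplasmic reader, at 0.30. The second probe of Mettl3 was at 0.0051 and that of Ythdf3 at 0.04, and in 5 of the 8 m6A genes with several probes the probes had opposite signs. The widest span between probes of 1 gene in this list was 0.50, with a second probe at -0.57, below the range of the brightest probes. Ythdc1, the reader that meets SRSF3 and SRSF10, had signals of 29884 and 21890 and a difference of 0.01.

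**Figure D4:**
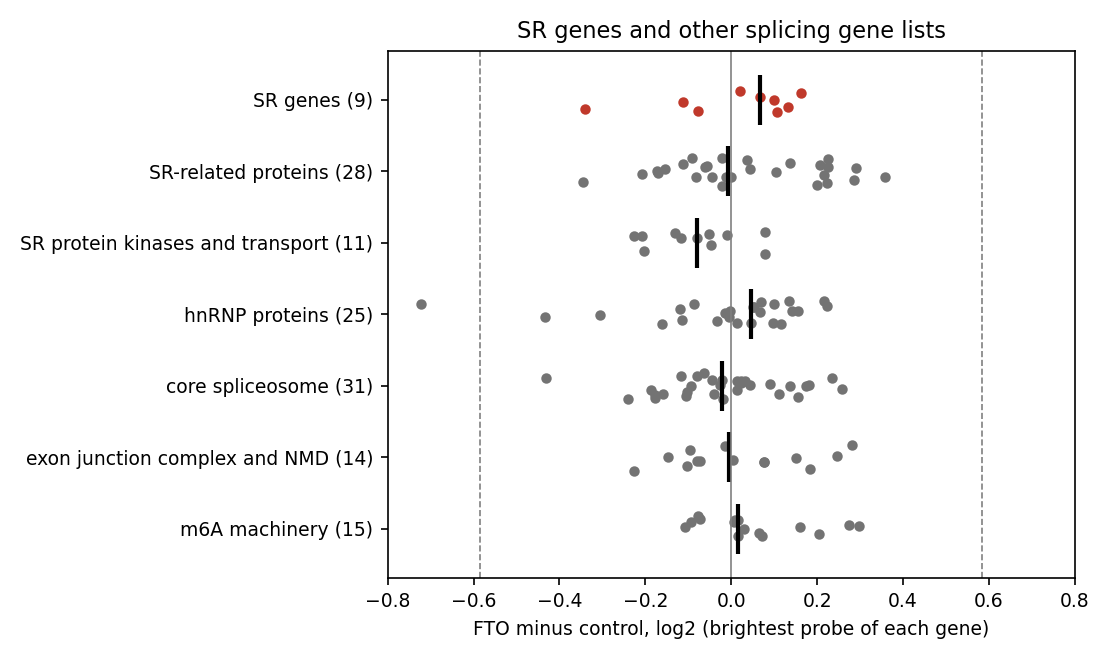
Log2 difference (FTO minus control) of the brightest probe of each gene, by list, with the number of genes tested in parentheses. Black bars mark medians and dashed lines a 1.5-fold difference. The 9 SR genes (red) overlap every other list, and the gene beyond the dashed line is Hnrnpl at -0.72.

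Differences of the brightest probe kept their sign under quantile normalization, 75th percentile scaling, cyclic loess and normexp in 8 of 9 genes. Srsf7 was the exception, and Srsf3 kept its sign at only 0.0037 after 75th percentile scaling. The share of all genes that kept their sign was not computed, so this count does not set the SR genes apart. Across these 4 settings Srsf9 lay between -0.34 and -0.32 and Srsf10 between 0.14 and 0.22. After 75th percentile scaling 5 of 9 SR genes were above 0 beside 38.8% of all genes.

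**Figure D5:**
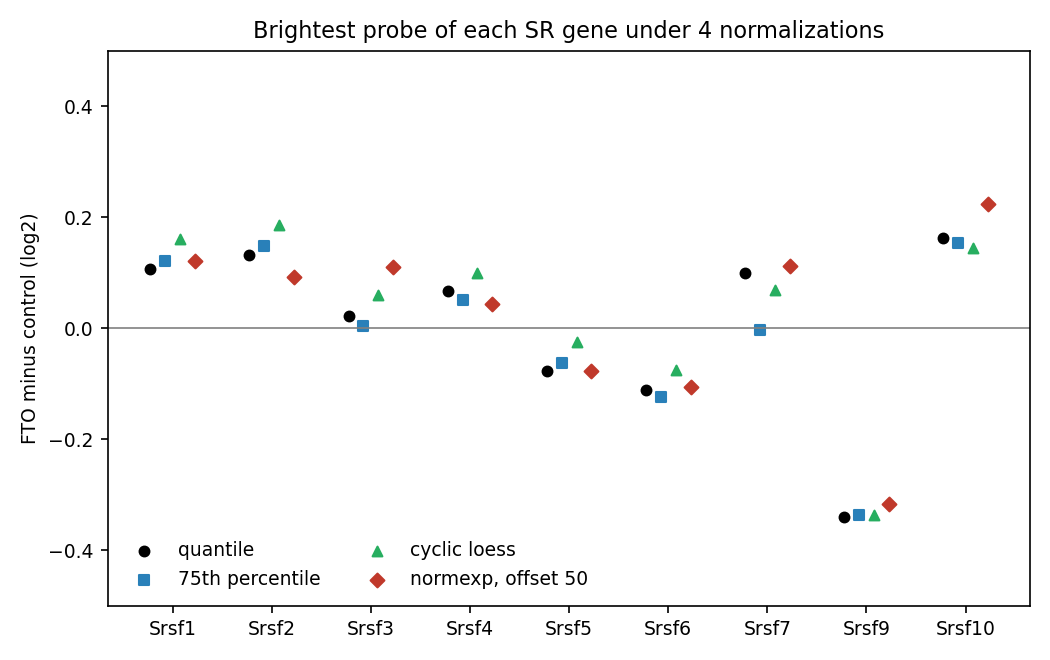
Log2 difference (FTO minus control) of the brightest probe of each SR gene after 4 normalizations. Srsf9 is lowest under all 4, and the 75th percentile value of Srsf7 lies at -0.0037.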

How the data were processed

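Total RNA of both MIN6 cultures was labeled with Cy3 and hybridized to Agilent whole mouse genome arrays. The authors deposited spot intensities from Agilent Feature Extraction 11.0.1.1, corrected for background and for the trend across the array but not normalized between arrays, with an error estimate and flags per spot. The authors also deposited log2 values, quantile normalized in GeneSpring GX. For the SR probes, the differences computed here lie within 0.00094 of the differences between those log2 values.

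Control and outlier-flagged spots were dropped. The mean log2 signal of each probe was quantile normalized, the method the study names, using limma 3.58.1 (R 4.3.3). Further steps used Python 3.11.15, pandas 2.3.3 and numpy 2.4.6, with figures from matplotlib 3.10.9. Probes had to be well above background on 1 array or both (repeated probes, on more than 50% of their spots), and a gene took the value of its brightest probe. Accessions, without version, were matched to symbols in the NCBI annotation of GRCm38.p6. The array design lists another assembly, so no coordinates are given, and probe sequences were not used here. Probes without a RefSeq accession in that annotation stayed unnamed.

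Areas of lost signal were found from 79 repeated probes in 35 blocks of 76 rows and 17 columns. A block counted where 15% or more of these spots were over 0.5 (log2) below their probe's median, which held for 6 blocks of the FTO-labelled array and 2 of the control-labelled array. The normalization, the choice of the brightest probe and the 2-fold rule were tested on simulated arrays with known changes in 200 genes. The areas of lost signal, the spread of repeated spots and the spans between probes were not tested in this way. Members and gene lists were chosen with earlier results of these data known. Genes were named as members, as extremes of a list, for a difference past 1.5-fold, or because the plan listed them. A list gene that this rule would name is not reported here.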

Additional observations from a re-analysis of the deposited data

How the results depend on the processing

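The counts, median and brightest-probe differences of the SR genes and the medians of the lists were recomputed under 75th percentile scaling, cyclic loess, normexp with an offset of 50 on median spot signals, the deposited log2 values, 2 other filters on dim probes, a floor for dim signals, removal of the blocks of lost signal, and, for the SR genes alone, the median over the probes of a gene. Spans between probes, counts of signs in the lists and comparisons with spot errors were not recomputed. No SR gene reached 1.5-fold or 2-fold under any of them, nor with any probe of a gene counted, and the number above 0 was 5 or 6 of 9, or 6 of 7 without the blocks of lost signal. The median of the SR genes, 0.07, was 0.11 without those blocks, 0.02 with the median over probes and 0.0037 after 75th percentile scaling, when that of all genes was -0.06, and the median of the exon junction complex and decay genes was -0.074 without the blocks of lost signal. Without those blocks Srsf4 and Srsf9 have no value and Srsf6 is at 0.16 in place of -0.11, through its other probe. With the median over probes, Srsf1 is at 0.22, Srsf2 at -0.0075 and Srsf6 at 0.02. Srsf3 is at 0.11 and Srsf10 at 0.22 with normexp. The other medians of lists moved by less than the spread of repeated spots. Filters on dim probes change no SR gene, since all 18 probes were well above background. No paired analysis was possible because each condition has 1 array, and 1 array per condition limits the precision of every value.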
